A study of Mus musculus with 6 samples.

Results

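Nrf2, encoded by Nfe2l2, and Keap1, its inhibitor, were examined together with 8 antioxidant genes that Nrf2 is known to switch on: Nqo1, Slc7a11, Gclc, Gclm, Gsr, Txnrd1, Srxn1 and Prdx1. The 10 genes were chosen as a pathway, by symbol; the rule used no measured value, but earlier results of these data were known when it was set. Each gene was followed through the array row that carries its symbol, and 8 of the 10 had a row with no other symbol among the 30142 genes tested. The rows of Gclm and Prdx1 each list a second gene, the pseudogenes Gm6061 and Gm21399, so their values are given as values of a shared row and are not counted with the 8.

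Expression was measured on 6 arrays of macrophages that had been pulled from epididymal fat with an antibody to F4/80, the surface protein that Adgre1 encodes. The mice were male C57BL/6J, kept on their diet for 16 weeks from 6 weeks of age and sampled at 22 weeks. The groups were normal chow (NCD, Envigo Teklad 8904, lean mice) and a 60% high-fat diet (HFD, Research Diets D12492, obese mice), with 3 pools each. An NCD pool held cells of 20 mice and an HFD pool cells of 10, so differences between single mice were not measured, and the spread below is that between pools.

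Under resting conditions Keap1 holds Nrf2 in the cytoplasm and hands it to a Cul3 ubiquitin ligase, which leads to its breakdown. Oxidants and electrophiles modify cysteines of Keap1, Nrf2 then builds up, and with a small Maf partner it binds antioxidant response elements near genes of glutathione synthesis, of the thioredoxin and peroxiredoxin system, and of quinone and carbonyl detoxification. Much of this control acts on protein, which an expression array does not measure. In macrophages the same genes set how well the cell withstands its own oxidant burst and the lipid peroxides it takes up.

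The sequences below show where the letters of this element stand near the members' start sites. The core searched was TGACNNNGC, on both strands, in RefSeq windows of the GRCm38.p6 build that run from 250 bases before to 50 bases after each start. Windows were matched for 8 members, all but Gclc and Gsr, and Txnrd1 had several. The core was present in 5 of the members' 10 windows, against 12.4% of all 32851 windows, and the members are known Nrf2 targets or regulators, so this share is a description. It lay before the start in the windows of Gclm (chr3:122245398-122245456, plus strand), Nfe2l2 (chr2:75704870-75704913, minus strand), Prdx1 (chr4:116685441-116685499, plus strand) and the middle of the 3 Txnrd1 windows (chr10:82859089-82859147, plus strand). They are shown because they are the members' matches that lie wholly before the start, 5′ to 3′ on the gene's strand, with the core or its reverse complement in capitals.
Gclm: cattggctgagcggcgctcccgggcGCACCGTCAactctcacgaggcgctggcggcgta
Nfe2l2: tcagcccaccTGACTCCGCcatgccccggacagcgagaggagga
Prdx1: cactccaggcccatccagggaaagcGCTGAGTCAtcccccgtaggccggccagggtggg
Txnrd1: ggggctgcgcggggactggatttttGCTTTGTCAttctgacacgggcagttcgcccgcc
The Prdx1 match overlaps TGANTCA, the heptamer bound by AP-1 and found in 7.81% of all windows, and such an overlap was present in 0.454% of windows. The Prdx1 window held the heptamer at another place too, as TGACTCA from 237 to 231 bases before the start. In Srxn1 the core, GCTAGGTCA, began 28 bases after the start, and the 250 bases before the start held the AP-1 heptamer at 2 places. The place nearer the start reads TGAGTCAGC, which differs from the core only by G where the core has C after TGA. Forms with G there were not searched, so a wider form of the element before the start is not excluded. The Srxn1 stretches are shown because this member had the smallest adjusted p, with the heptamer in capitals (chr2:152105397-152105453 and chr2:152105454-152105510, plus strand).
Srxn1 far: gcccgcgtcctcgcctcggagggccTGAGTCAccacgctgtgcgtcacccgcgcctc
Srxn1 near: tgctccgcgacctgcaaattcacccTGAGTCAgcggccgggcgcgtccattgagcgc
The windows of Keap1, Nqo1 and Slc7a11 did not hold the core, which says only that these letters are not in those stretches. Among the other pathway genes described below, 21 of 153 windows (13.7%) held it.

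The members did not move as a block between diets. Srxn1 and Txnrd1, which serve the peroxiredoxin and thioredoxin system, were higher after HFD, and so was the row shared by Prdx1. Genes that make and recycle glutathione (Gclc, the row shared by Gclm, Gsr and the cystine importer gene Slc7a11) did not pass the test, and neither did Nfe2l2, Keap1 or Nqo1. The difference between the thioredoxin and the glutathione genes was not itself tested. Of the 8 members with a row of their own, 2 rose and 6 were not called at an adjusted p of 0.05 (limma, Benjamini-Hochberg adjustment over the 30142 genes). Among all genes 7.83% were called, 4.96% as higher and 2.87% as lower, and among the 15747 genes whose mean lay above the array background of 6.23 log2, as that of all 8 members did, 13.3% were called. The median change of the 8 members was −0.08 log2, HFD minus NCD, beside 0.01 over all genes. The pools of the 2 diets did not overlap in 4 members (Nfe2l2, Srxn1, Txnrd1 and Nqo1), and 30.6% of all genes had pools that did not overlap.

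**Figure D1:**
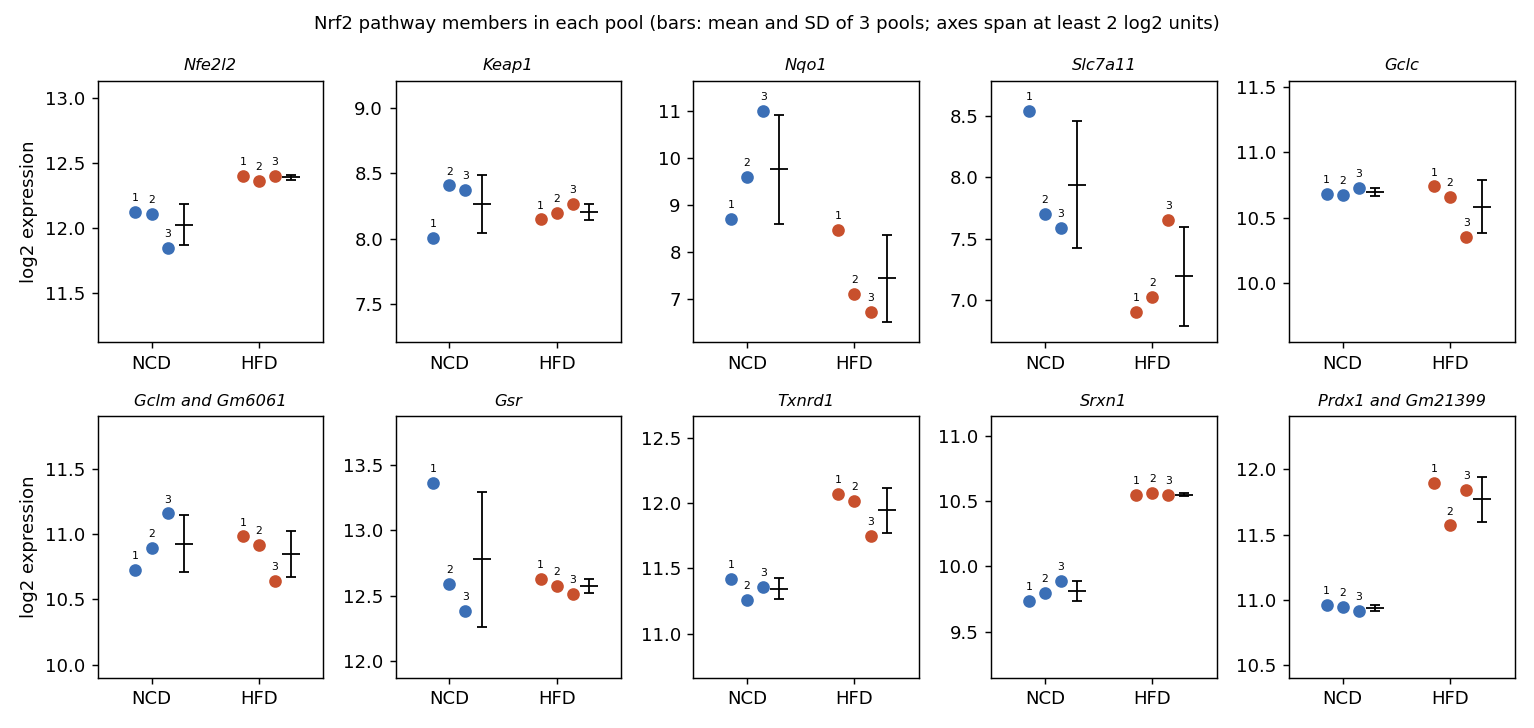
Log2 expression (y axis) of the 10 members or shared rows in each NCD (blue) and HFD (orange) pool, numbered by pool, with the mean and SD of 3 pools beside them. Srxn1, Txnrd1 and the row of Prdx1 and Gm21399 have HFD pools above all NCD pools, while the NCD pools of Nqo1 run from 8.70 to 11.00.

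Srxn1 encodes sulfiredoxin, which repairs peroxiredoxins that peroxide has inactivated. Its log2 levels (transcript cluster TC0200002275.mm.1) were 9.74, 9.80 and 9.89 in NCD1 to NCD3 and 10.54, 10.56 and 10.54 in HFD1 to HFD3. The HFD pools were nearly equal, and all of them lay above every NCD pool. The mean was 9.81 ± 0.08 (SD, n = 3) in NCD and 10.55 ± 0.01 (SD, n = 3) in HFD, a rise of 0.74 ± 0.10 log2 (standard error; 1.67-fold, adjusted p = 0.0116). Its size held when any array was left out (0.71 to 0.78), but leaving out NCD2 (adjusted p = 0.0537), HFD1 (0.0511), HFD2 (0.0746) or HFD3 (0.0658) ended the call, in fits that also had fewer arrays to estimate the spread.

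Txnrd1 encodes the cytosolic thioredoxin reductase, the selenoprotein that keeps thioredoxin reduced with NADPH. Its log2 levels were 11.42, 11.26 and 11.36 in NCD1 to NCD3 and 12.07, 12.02 and 11.75 in HFD1 to HFD3. HFD3 was the lowest HFD pool and still lay above the NCD pools. Txnrd1 rose by 0.60 ± 0.13 log2 from a mean of 11.35 ± 0.08 to one of 11.94 ± 0.17 (SD, n = 3 each; 1.51-fold, adjusted p = 0.0415). With 1 array left out the change was 0.54 to 0.70; the call held without NCD1 and was lost without each of the other 5 arrays (adjusted p from 0.0752 to 0.178), and in a fit over all transcript clusters (0.0716).

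Prdx1 encodes a peroxiredoxin, which reduces hydrogen peroxide, is repaired by sulfiredoxin and is recharged by thioredoxin. Its row also lists Gm21399, a pseudogene of a peroxiredoxin, so the signal cannot be assigned to Prdx1 alone. The row's log2 levels were 10.96, 10.94 and 10.91 in NCD1 to NCD3 and 11.90, 11.57 and 11.84 in HFD1 to HFD3, with no overlap between diets. The shared row rose by 0.83 ± 0.14 log2 (1.78-fold, adjusted p = 0.0263 over all 65956 transcript clusters, of which 3.45% were called). Its change was 0.77 to 0.93 with 1 array left out; the call held without NCD1, and the adjusted p was 0.0513 to 0.140 without each of the others. A separate row of Gm21399 alone was at 0.51 ± 0.15 (adjusted p = 0.0920).

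Gclc and Gclm encode the catalytic and the modifier subunit of glutamate-cysteine ligase, the rate-limiting enzyme of glutathione synthesis. Gclc was at 10.68, 10.68 and 10.73 log2 in the NCD pools and at 10.74, 10.66 and 10.35 in the HFD pools. HFD1 was the highest pool and HFD3 the lowest, so the diets overlapped. Its change was −0.11 ± 0.13 log2 (95% interval −0.43 to 0.21, adjusted p = 0.686). The row shared by Gclm and Gm6061 was at 10.72, 10.89 and 11.16 in NCD and at 10.98, 10.92 and 10.64 in HFD, also with overlap. Its change was −0.08 ± 0.17 (95% interval −0.47 to 0.32, adjusted p = 0.868). The sign turned without NCD3 (0.039) and without HFD3 (0.025). Both 95% intervals leave out a change, in either direction, as large as the 0.74 of Srxn1.

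Slc7a11 encodes the light chain of the cystine and glutamate exchanger that supplies cysteine for glutathione. Its log2 levels were 8.54, 7.70 and 7.58 in NCD1 to NCD3 and 6.90, 7.03 and 7.65 in HFD1 to HFD3. NCD1 stood above the other pools, and HFD3 lay between the other NCD pools. The change was −0.75 ± 0.30 log2 (95% interval −1.48 to −0.02, adjusted p = 0.195) and ran from −0.98 to −0.45 with 1 array left out. With the mean of endothelial markers as a covariate it was −1.51 ± 0.25 (adjusted p = 0.0450). Slc3a2, the heavy chain of the same exchanger, was at −0.22 ± 0.20 (adjusted p = 0.564). It was at −0.44 and called without NCD1 (adjusted p = 0.0339), at −0.44 to −0.10 over the fits without 1 array, and at 0.23 with the covariate.

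Gsr encodes glutathione reductase, which returns oxidised glutathione to its reduced form. It was at 13.36, 12.59 and 12.38 log2 in NCD1 to NCD3 and at 12.63, 12.57 and 12.52 in HFD1 to HFD3. NCD1 was the highest pool and NCD3 the lowest, with the 3 HFD pools between them. The change was −0.21 ± 0.25 (95% interval −0.81 to 0.40, adjusted p = 0.695), and it was 0.09 without NCD1 and −0.75 ± 0.26 with the endothelial covariate (adjusted p = 0.257).

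**Figure D2:**
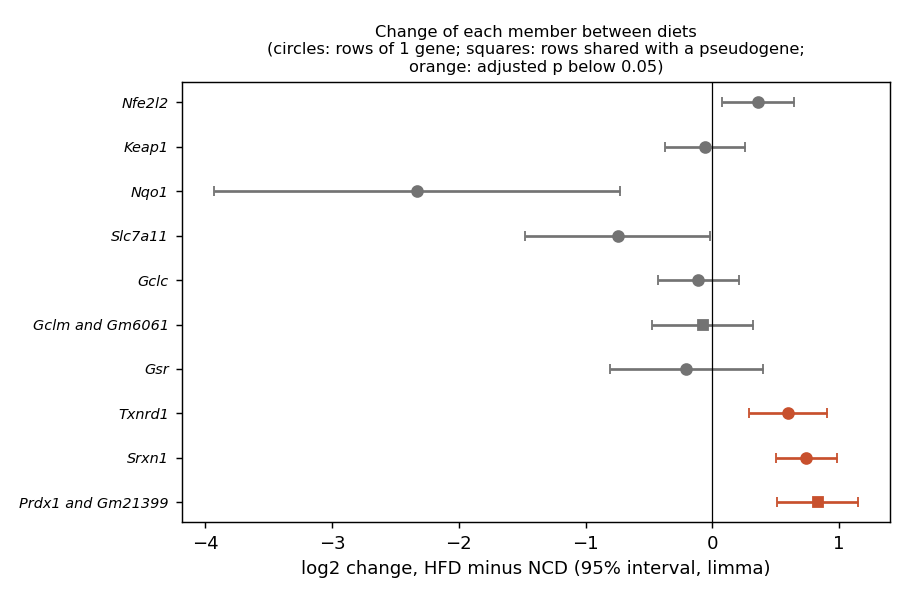
Log2 change, HFD minus NCD (x axis), of each member with its 95% interval from limma (3 pools per diet); circles are rows of 1 gene, squares are rows shared with a pseudogene, and orange marks an adjusted p below 0.05. Srxn1, Txnrd1 and the row of Prdx1 and Gm21399 lie to the right of 0, and Nqo1 has the widest interval, from −3.93 to −0.73.

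Neither Nfe2l2 nor Keap1 passed the test. Nfe2l2 was at 12.12, 12.11 and 11.85 log2 in NCD1 to NCD3 and at 12.40, 12.36 and 12.40 in HFD1 to HFD3. All HFD pools lay above the NCD pools, and NCD3 was the lowest of the 6. The change was 0.36 ± 0.12 (1.28-fold, 95% interval 0.08 to 0.65) and was not called (adjusted p = 0.122; 0.27 to 0.41 with 1 array left out). Keap1 was at 8.01, 8.41 and 8.37 in NCD and at 8.15, 8.20 and 8.26 in HFD, with the HFD pools inside the NCD range. Its change was −0.06 ± 0.13 (95% interval −0.38 to 0.26, adjusted p = 0.843), and it was 0.15 with the endothelial covariate.

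Nqo1, the quinone reductase that is a widely used readout of Nrf2 activity, had the largest difference of the 10, with lower values in HFD. Its log2 levels (transcript cluster TC0800002877.mm.1) were 8.70, 9.60 and 11.00 in NCD1 to NCD3 and 8.48, 7.11 and 6.72 in HFD1 to HFD3. NCD3 stood far above the other pools, NCD1 and HFD1 were close, and the diets did not overlap. The mean was 9.77 ± 1.16 in NCD and 7.44 ± 0.92 in HFD (SD, n = 3 each), a difference of −2.33 ± 0.67 log2 that was not called (5.03-fold, 95% interval −3.93 to −0.73, adjusted p = 0.0888). The difference ran from −2.86 without NCD1, where it was called (adjusted p = 0.0323), to −1.71 without NCD3, and it was −0.52 ± 0.43 with the endothelial covariate (adjusted p = 0.673).

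Markers of vessel cells were highest and lowest in the same pools as Nqo1. The endothelial list (15 of 16 genes measured, all above background in every pool) had a mean of 11.71, 13.62 and 14.10 log2 in NCD1 to NCD3 and of 12.08, 10.72 and 10.70 in HFD1 to HFD3. The smooth muscle and pericyte list (10 of 10 measured) was at 10.01, 10.98 and 12.00 in NCD and at 9.07, 8.28 and 8.02 in HFD. Both lists, like Nqo1, were highest in NCD3 and lowest in HFD3, and the smooth muscle list had all pools in the order of Nqo1. The endothelial mean was nearly equal in HFD2 and HFD3. Unlike Nqo1, it was higher in HFD1 than in NCD1. The mesothelial list (9 of 9 measured, 5 of them with a mean below background) was at 7.20 to 7.76 in NCD and 5.66 to 5.81 in HFD, highest in NCD1. All 9 mesothelial genes were called as lower, as were 6 of the 10 smooth muscle and pericyte genes and 1 of the 15 endothelial genes. In these lists 0 were called as higher. Nqo1 is known to be expressed in endothelial cells as well as in macrophages. The part of these cells in the Nqo1 difference was not tested, and in such bulk samples fewer cells of a type and less RNA per cell cannot be told apart.

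**Figure D3:**
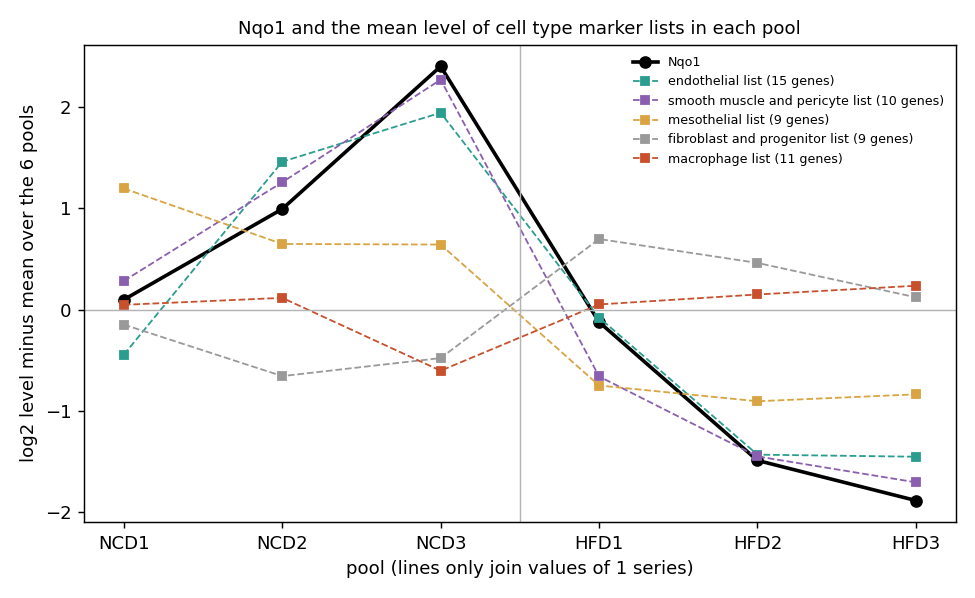
Log2 level of Nqo1 (black) and mean log2 level of 5 marker lists (colours) in each pool, as the difference from the mean over the 6 pools (y axis); lines join the values of 1 series. Nqo1, the endothelial list and the smooth muscle list are highest in NCD3 and lowest in HFD3. The macrophage list is lowest in NCD3 (mean level before subtraction 14.39 log2, and 15.04 to 15.23 in the other pools).

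Markers of the labelled cell type were high in every pool. Of 13 macrophage markers 11 were measured, all above background in every pool, and their mean was 15.04, 15.11 and 14.39 log2 in NCD1 to NCD3 and 15.05, 15.15 and 15.23 in HFD1 to HFD3. Of these, 2 rose (Fcgr1 by 1.43 ± 0.21 and Cd68 by 1.20 ± 0.22), 1 fell (Mertk, −0.49 ± 0.10) and 8 were not called, among them the selection marker Adgre1 (0.91 ± 0.27, adjusted p = 0.0924, pools not overlapping); these 4 were named after their values were seen. In the list of fibroblast and adipose progenitor markers 6 of 9 genes measured rose (list mean 8.47 to 8.98 in NCD, 9.25 to 9.83 in HFD). The other 3 were not called and had lower values in HFD: Dpp4 (−1.42) and Dcn (−0.88), whose pools did not overlap, and Pi16 (−0.10). Mast cell markers rose in 4 of 8 (list mean 5.56 to 5.68 in NCD and 6.20 to 6.69 in HFD, beside the background of 6.23). The genes of these 3 lists that rose did so in the same diet as Srxn1, Txnrd1 and the Prdx1 row, and their part in those rises was not tested. The rise of Srxn1 was 0.82 ± 0.14 with the endothelial covariate (adjusted p = 0.0501) and that of Txnrd1 0.62 ± 0.19 (adjusted p = 0.210). Neutrophil markers were highest in HFD3 (list mean 9.06) and lowest in HFD1 and HFD2 (6.92 and 6.83), with the NCD pools at 7.89 to 8.33. Of the 11 neutrophil genes measured, 9 had a negative change, and 1 was called, as lower. Lymphocyte markers were highest in NCD1 (list mean 8.40, and 7.18 to 7.53 in the other pools), as Slc7a11 and Gsr were. Adipocyte markers were lowest in HFD1 (list mean 6.90, and 7.62 to 8.50 in the other pools). In the lymphocyte and adipocyte lists 0 genes were called, and the part of these cells in the members' values was not tested.

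The genes whose levels followed a member most closely over the 6 pools were found for the member with the smallest adjusted p and the one with the widest spread within diets, among genes with a mean above background. For Srxn1 they were Lsm11, a subunit of the histone pre-mRNA processing complex (Pearson r = 0.997, change 0.38), Gm13588 (r = 0.996, change 0.39) and Haus7, a spindle augmin subunit (r = 0.995, change 0.41). For Nqo1 they were Ret, a receptor tyrosine kinase (r = 0.999, change −2.14), the catenin-like Ctnnal1 (r = 0.999, change −1.77) and Boc, a hedgehog co-receptor (r = 0.998, change −0.44). Each r describes 6 points that fall into 2 diets, and the genes were picked as the highest of 15747.

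The rest of the pathway was read from lists of 141 other genes, of which 127 were measured and 14 were not analysed here. Of the 127, 17 rose, 10 fell and 100 were not called, with a median of 0.08 log2 beside 0.01 over all genes. Among all genes 7.83% were called, and among those with a mean above background 13.3%. With quantile normalization the split of the 127 was 21 higher and 5 lower. The counts moved with single arrays: 23 rose and 26 fell without NCD1, 9 and 4 without NCD3, and 3 to 8 genes were called without each of the other 4 arrays. The count over all genes moved too, from 442 without HFD2 to 4713 without NCD1. With the endothelial covariate 2 were called as higher and 1 as lower, Akr1b8 and Aldh1a1 among them, so the other calls named below were lost in that fit. The covariate comes from the same 6 arrays and itself differed between diets (median change of its list −1.92). A call lost in that fit therefore does not by itself mean a smaller change.

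Detoxification of quinones, aldehydes and other carbonyls held 9 rises among 19 genes measured, with 2 falls, 8 not called and a median of 0.48. Akr1b8, an aldo-keto reductase of aldehydes, was at 11.73, 11.46 and 11.30 log2 in NCD1 to NCD3 and at 14.44, 14.10 and 14.15 in HFD1 to HFD3. The groups were far apart, and the rise of 2.74 ± 0.16 (6.66-fold, adjusted p = 0.00143) kept its call in all 6 fits that left out an array and under the endothelial covariate (2.62). Its relative Akr1b10 rose by 1.67 ± 0.22 (3.18-fold) and the aldehyde reductase Akr1a1 by 1.03 ± 0.14 (2.04-fold), both of which lost their call without HFD2 or HFD3, and Akr1b10 also without NCD2. The Akr1b genes are close relatives, and whether their probes tell them apart was not tested. The retinaldehyde dehydrogenase Aldh1a1 fell by 2.30 ± 0.29 (4.91-fold, adjusted p = 0.0103), called without each array in turn. The other fall, named after its values were seen, was that of the epoxide hydrolase Ephx1 (−0.82 ± 0.17). Without an array the list had 1 to 9 rises, the fewest without HFD3.

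Glutathione transferases, which couple glutathione to electrophiles, held falls only: 6 of 22 fell, the other 16 were not called, and the median was −0.51. Falls were Gsta4 (−0.77 ± 0.10, adjusted p = 0.0104), Gsta3 (−0.81 ± 0.11), Gstt1 (−1.43 ± 0.30; −0.71 with the endothelial covariate) and Mgst2 (−0.40 ± 0.08), and, named after their values were seen, Gstm1 (−0.89 ± 0.19) and Gstm3 (−0.74 ± 0.15). The HFD means of Gsta4, Gsta3 and Mgst2 (6.20, 6.18 and 6.21) lay just below the background of 6.23, so the sizes of these 3 falls are uncertain. The Gsta and Gstm genes are also close copies, and shared probe sequence was not tested. The number of falls was 3 with quantile normalization, 14 without NCD1, 1 to 3 without each of the other arrays and 0 by limma with the endothelial covariate (median −0.24), where 6 were lower at an unadjusted p below 0.05. The means of the smooth muscle and mesothelial lists above were lower in the same diet. The endothelial list had a median change of −1.92, with its mean in HFD1 above that in NCD1. The part of the cells of these lists in the transferase falls was not tested.

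**Figure D4:**
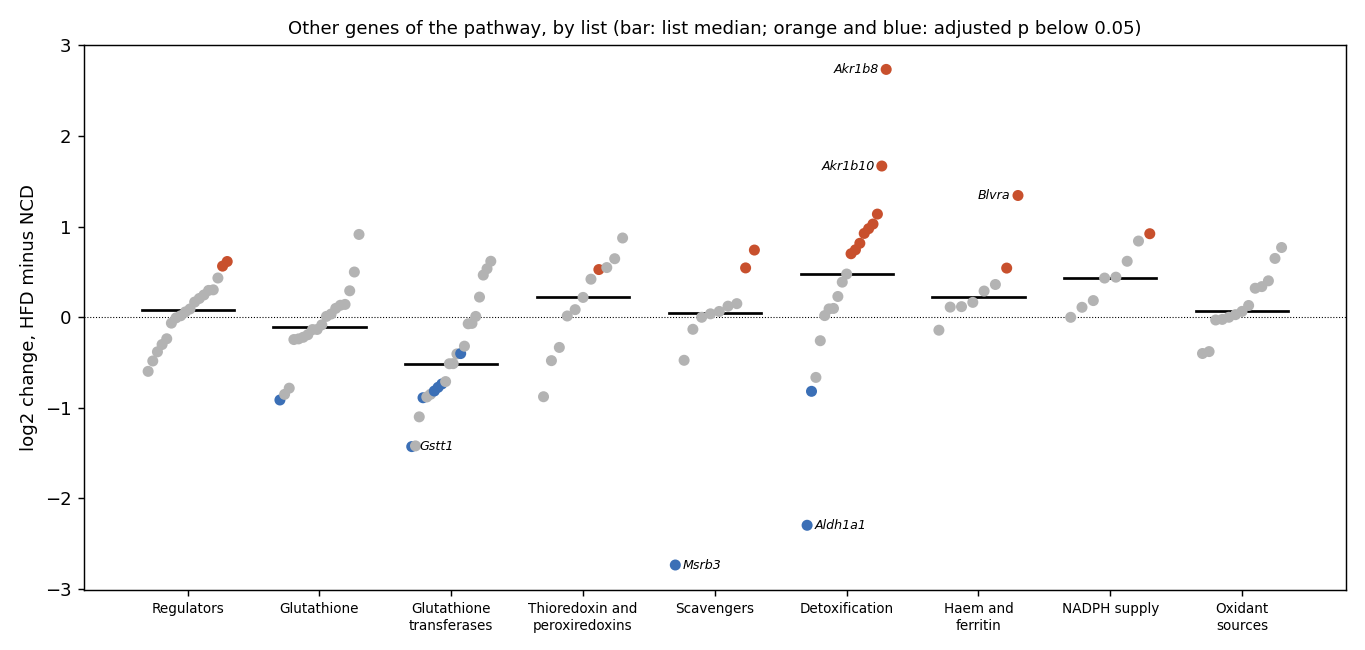
Log2 change, HFD minus NCD (y axis), of 127 other pathway genes in 9 lists (x axis), 1 point per gene and sorted within its list, with the list median as a bar; orange and blue mark genes with an adjusted p below 0.05 that were higher or lower. Detoxification has 9 orange points with Akr1b8 at the top, and the glutathione transferases have 6 blue points and a median of −0.51.

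In the list of thioredoxins, peroxiredoxins and sestrins, 1 of 11 rose: Txn1, the thioredoxin that Txnrd1 reduces, at 13.94, 14.08 and 13.86 log2 in NCD and 14.51, 14.35 and 14.61 in HFD. Its rise of 0.53 ± 0.12 (1.44-fold, adjusted p = 0.0459) lost its call when any array was left out (adjusted p from 0.0509 to 0.187). The thioredoxin inhibitor Txnip was at −0.88 ± 0.24 (adjusted p = 0.0795) and was called without NCD1 (−1.14); it was at −0.22 with the endothelial covariate. In the rest of the glutathione list, 1 of 18 fell, the secreted peroxidase Gpx3 (−0.91 ± 0.18, adjusted p = 0.0329; the call was lost when any array but NCD1 was left out, and with the endothelial covariate, at −0.51). The cellular peroxidase Gpx1 was at 0.50 ± 0.12 and just missed the threshold (adjusted p = 0.0518; 0.0233 with array medians made equal and 0.0294 with quantile normalization), and it was at 0.30 with the endothelial covariate. The lipid peroxidase Gpx4 was at 0.01 ± 0.16 (adjusted p = 0.983; 0.20 with the covariate).

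Of 10 dismutases, catalase and methionine sulfoxide reductases, 2 rose and 1 fell. The repair enzyme Msra rose by 0.74 ± 0.10 (adjusted p = 0.0128; call lost when NCD2, HFD2 or HFD3 was left out). Catalase, Cat, rose by 0.54 ± 0.12 (adjusted p = 0.0457), and its call held without NCD1 and was lost without each of the other arrays. Msrb3 fell by 2.73 ± 0.61 (adjusted p = 0.0458), at 11.29, 12.29 and 13.64 in NCD1 to NCD3 and 10.41, 9.47 and 9.14 in HFD1 to HFD3, highest in NCD3 and lowest in HFD3 as Nqo1 was. Its value was −1.07 with the endothelial covariate, and its call too held only without NCD1 among the fits without an array. The superoxide dismutases Sod1 (0.12 ± 0.17) and Sod2 (−0.13 ± 0.15) were not called, and were at 0.33 and −0.44 with the covariate.

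Of 8 genes of haem breakdown, synthesis and transport and of ferritin, 2 rose. They were the biliverdin reductase Blvra (1.34 ± 0.20, 2.54-fold, adjusted p = 0.0147; call lost when NCD2, HFD2 or HFD3 was left out, and 0.88 with the endothelial covariate) and the haem transporter Slc48a1 (0.54 ± 0.11, adjusted p = 0.0313; lost when any array but NCD1 was left out). Hmox1, the haem oxygenase that is a classic Nrf2 target, was at 13.72, 13.65 and 12.71 log2 in NCD1 to NCD3 and at 13.26, 13.29 and 13.10 in HFD1 to HFD3. The HFD pools lay inside the NCD range, and the change was −0.14 ± 0.27 (adjusted p = 0.813; −0.57 with the endothelial covariate). Of 8 genes that supply NADPH, the cofactor of Txnrd1, Gsr and Nqo1, 1 rose: Pgd of the pentose phosphate pathway (0.92 ± 0.15, 1.89-fold, adjusted p = 0.0175; called without NCD1 or NCD3 and not without the other arrays).

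Of 18 other regulators measured, 2 rose, Dpp3 (0.61 ± 0.13, adjusted p = 0.0389; 0.37 with the endothelial covariate) and Palb2 (0.56 ± 0.11, adjusted p = 0.0305), both of which encode proteins known to bind Keap1. Both lost their call when any array but NCD1 was left out. The small Maf gene Mafg was at 0.30 ± 0.10 (adjusted p = 0.124), the repressor gene Bach1 at 0.30 ± 0.25 (adjusted p = 0.540; 0.054 without NCD3, 0.57 without NCD1 and −0.30 with the endothelial covariate) and the Keap1-binding autophagy receptor gene Sqstm1 at 0.17 ± 0.13 (adjusted p = 0.490; 0.088 to 0.23 without 1 array). In a list of 13 oxidant-producing enzymes, oxidase subunits and myeloperoxidase, limma called 0, with 4 at an unadjusted p below 0.05 (3 higher and 1 lower). Of these 13 genes, 6 had a mean below background, where a change is hard to measure. Cybb, the catalytic subunit of the phagocyte NADPH oxidase, was at −0.02 ± 0.24 (adjusted p = 0.969), and the sign of this value changed with the scaling of the arrays (0.02 with equal medians, 0.05 with quantile normalization); it was −0.52 with the endothelial covariate.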

How the data were processed

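Log2 expression values were used as the authors deposited them, 1 value per transcript cluster and pool, from 100 ng of labelled RNA. RMA, Transcriptome Analysis Console 3.1.0.5 and Expression Console 1.4.1.46 (Affymetrix) are listed in the submitters' processing notes; the options and the genome build are not given in the sources used here. Column medians over 65956 clusters were close but not equal. Arrays have no read depth, and their number limits the precision (median standard error of a change 0.118 log2).

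Control probe sets (6732) were left out. Clusters with 1 gene symbol (30604; 2146 had several and 33206 none) were kept, 827 symbols were updated by Entrez identifier, and the cluster with the highest mean stood for each gene. The diets were compared with limma 3.58.1 in R 4.3.3 (lmFit and trended eBayes), two-sided, with Benjamini-Hochberg adjustment over 30142 genes. On simulated data with independent noise per gene and 200 of 30142 genes changed, the fit recovered 63% of 2-fold and 89.9% of 4-fold changes. Changes below 2-fold, such as those of Srxn1 and Txnrd1, were not simulated, nor was a larger number of changed genes. Shifts that many genes share between pools were not simulated. The background level is the mean over arrays of the 95th percentile of 23 antigenomic probe sets. Rows shared with another gene were read from a fit over all clusters, added after their annotation was seen.

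Named genes are the members, a fixed set of well-known pathway genes, and up to 4 called genes per list by adjusted p; others are marked. Members and lists were chosen with earlier results of these data known. Alternatives were other scalings, a filter on dim genes, another row per gene, no trend, array weights, a replicate block, an endothelial covariate and leaving out each array. Figures were drawn with matplotlib 3.10.9.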

Additional observations from a re-analysis of the deposited data

How the results depend on the processing

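Of the 8 members, 2 were called with the settings of the report and with equal array medians, quantile normalization, dim genes dropped, rows averaged, no variance trend and array weights. The count was 1 with the endothelial covariate (Slc7a11, lower), 1 in the fit over all transcript clusters (added after seeing the data) and 0 to 3 without 1 array (limma; 3 to 5 at an unadjusted p below 0.05, Srxn1 and Txnrd1 among them each time). Over all genes 2359 were called, 4282 with array weights, 572 with the endothelial covariate and 442 to 4713 without 1 array. Other pathway genes called numbered 27, and 44 with array weights, 3 with the covariate, 13 over all clusters and 3 to 49 without 1 array. The labels do not say whether a replicate number shared by the diets marks a shared day or batch. Deviations from the diet mean correlated at −0.46, −0.12 and −0.15 between same-numbered pools, and at −0.30 to 0.40 between the others. With 3 pools per diet these deviations are tied to each other, so they cannot show whether pools were paired. With the replicate block 144 genes were called, 0 of the members and 1 other pathway gene. Of the members, 3 were at an unadjusted p below 0.05 in that limma fit (Nqo1, Srxn1 and Txnrd1).

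Signs turned in genes that were not called in the report. With the endothelial covariate Gclc was at 0.0053, Keap1 at 0.15, Bach1 at −0.30 and Slc3a2 at 0.23. With array weights Gpx4 was at −0.11 and Sod1 at −0.0070. Cybb was at 0.017 with equal medians and 0.047 with quantile normalization. Without 1 array the ranges were −0.19 to 0.0044 (Gclc), −0.40 to 0.088 (Gsr), −0.19 to 0.014 (Keap1), −0.47 to 0.039 (Hmox1), −0.14 to 0.13 (Gpx4), −0.022 to 0.26 (Sod1), −0.22 to 0.022 (Sod2) and −0.30 to 0.20 (Cybb). The row shared by Gclm ran from −0.18 to 0.039. The causes were not tested.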
